A study of Homo sapiens with 6 samples.

Results

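The brain-selected line 231BrM-2a was compared directly with the bone-selected line 231BoM-1833, using the 2 arrays titled for each line, which are 4 of the 6 arrays of the study. All features with a gene symbol were taken, 21214 of the 33297 transcript clusters in the value table. A transcript cluster is the set of probes on the Affymetrix Human Gene 1.0 ST array that reads 1 transcribed region. Both lines descend from MDA-MB-231, a human triple-negative breast cancer line. Earlier work recovered 231BoM-1833 from bone metastases and 231BrM-2a from brain metastases that MDA-MB-231 cells had formed in mice. All 3 lines were cultured with serum and antibiotics, received no treatment that the labels name, and were sorted with magnetic beads for cells lacking CD24 but carrying CD44 and ESA, which is the product of EPCAM. This CD24-/CD44+/ESA+ profile is used to enrich breast cancer stem cells. Total RNA of the sorted cells was hybridised, with 2 replicates per line. Replicates are labelled biological, with no statement that each was a culture or sort of its own. The p-values therefore reflect only how far these samples spread, and some of that spread may be technical. Each organ is represented by 1 derivative, so a difference between organs of selection and a difference between these 2 lines cannot be told apart.

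Tumour cells that reach bone meet osteoclasts, osteoblasts and marrow, and lines selected there are known for secreted proteins and receptors that act on this setting, among them interleukin 11, CXCR4 and matrix metalloproteinase 1. Cells that reach the brain must pass tightly sealed capillaries, and lines selected there are known for HBEGF, PTGS2 and the sialyltransferase ST6GALNAC5. The study compared each derivative with the parental line, and the contrast between the derivatives is described here. Values are log2 expression values, normalised across arrays with RMA by the authors. A difference is always 231BrM-2a minus 231BoM-1833 on the log2 scale with its standard error, a fold is the higher mean over the lower, and an adjusted p comes from limma with Benjamini-Hochberg adjustment over the 21214 clusters. A gene is said to be higher, lower or called only where that adjusted p is under 0.05.

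Replicate arrays of a line correlated at r = 0.9935 to 0.9959 across clusters, and arrays of the 2 derivatives at 0.9666 to 0.9711, clusters not being independent replicates. The median SD between the replicates of a line was 0.078 in 231BrM-2a and 0.099 in 231BoM-1833. The sort markers chose the cells and are given as a check of level only. CD44, a hyaluronan receptor, was bright in both lines, at 12.17 and 11.82 in 231BoM-1833 and 11.45 and 11.46 in 231BrM-2a. CD24 was dim at 6.49 and 5.76 against 5.91 and 5.91, and EPCAM lay between at 8.32 and 7.28 against 8.15 and 8.23. CD24 and EPCAM overlapped between the lines and were not called (adjusted p = 0.515 and 0.351), but CD24 was called lower without 231BoM-1833 replicate 2 (0.0147) and EPCAM higher without 231BoM-1833 replicate 1 (0.00227). CD44 was 1.46-fold lower in 231BrM-2a (adjusted p = 0.014), a call that did not hold without the first 231BoM-1833 array (0.0565) or either array of 231BrM-2a (0.074 and 0.0704).

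The 2 derivatives differed in 4976 clusters, 23.5% of those tested. Of these, 2642 (12.5%) were higher in 231BrM-2a and 2334 (11%) were lower. The larger side was not stable: with array medians set equal 2209 were higher and 2809 lower, without 231BoM-1833 replicate 2 the counts were 2013 and 2090, and without 231BrM-2a replicate 2 they were 1475 and 1526. The large differences lay mostly on the side of 231BoM-1833. At least 4-fold, 77 clusters were higher in 231BrM-2a and 139 were lower, and at least 8-fold the counts were 13 and 52. Genes with several clusters or copies enter these counts more than 1 time, as HLA-DPA1 does with 3 clusters (-3.34, -3.25 and -3.25). A difference of at least 2-fold was called for 402 clusters higher (1.89%) and 570 lower (2.69%). The called differences had a median size of 0.613, and the smallest called was 0.312. Counts fell to 3079 without 231BrM-2a replicate 1 and to 3001 without 231BrM-2a replicate 2. The arrays of the 2 lines did not overlap in 60.1% of all clusters, so a lack of overlap says little by itself with 2 arrays a line. Among the called clusters 0 overlapped, so for a called gene it adds nothing to the call. With 1 cluster kept for each of 18418 symbols, 4256 genes were called (23.1%), 2258 of them higher (12.3%) and 1998 lower (10.8%). Those 2 shares are the background for the gene groups described here. Among protein-coding genes with a mean log2 value above 7 the shares were 17.9% and 14.8%, so brighter genes were called more often.

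**Figure D1:**
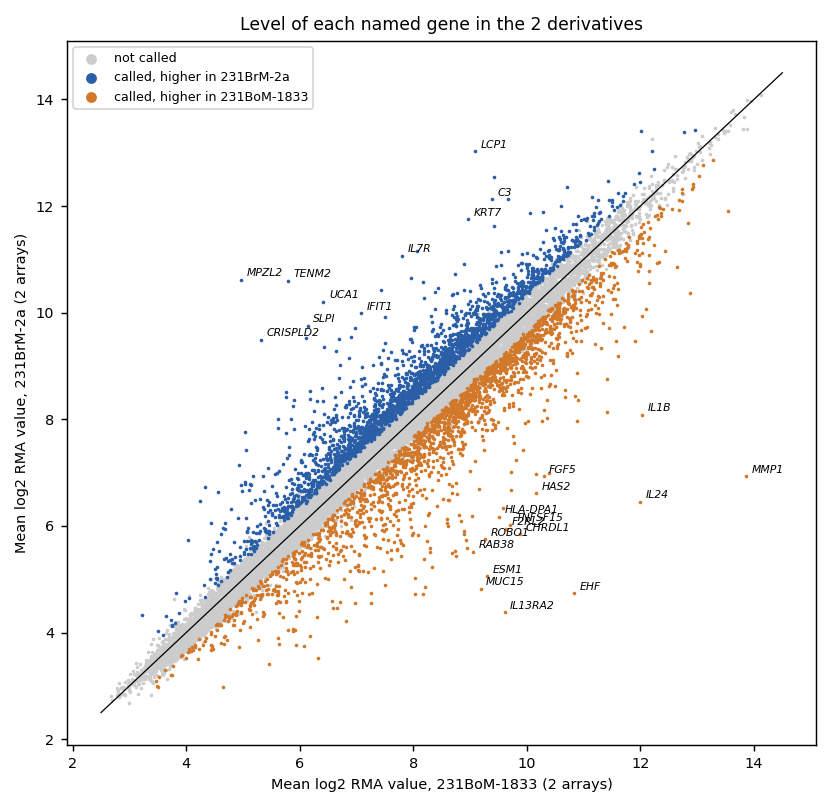
Mean log2 value of each of 18418 genes in 231BoM-1833 (horizontal axis) and 231BrM-2a (vertical axis), 2 arrays each; blue and orange points are genes called higher and lower in 231BrM-2a, grey points were not called, and the line marks equal levels. The points farthest from the line lie below it, led by MMP1 and EHF, with MPZL2 and TENM2 farthest above it.

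MPZL2, a small immunoglobulin-domain adhesion protein of epithelia, had the largest difference on the 231BrM-2a side. It read 5.24 and 4.70 in 231BoM-1833 and 10.51 and 10.72 in 231BrM-2a, a 50.0-fold difference (5.64 ± 0.17, adjusted p = 2.67e-07), with the parental arrays as low as the bone line at 5.43 and 5.32. TENM2, a teneurin that joins neighbouring cells at synapses and other contacts, read 5.99 and 5.59 against 10.56 and 10.64 (28.1-fold). Both genes were close to the dim end of the array in 231BoM-1833 and well up the scale in 231BrM-2a. CRISPLD2, a secreted cysteine-rich protein, read 5.35 and 5.30 against 9.36 and 9.64 (18.1-fold). LCP1, the actin-bundling L-plastin, was already bright in 231BoM-1833 at 9.55 and 8.63 and reached 12.99 and 13.06 in 231BrM-2a (15.3-fold). SLPI, a secreted inhibitor of leukocyte proteases, read 6.48 and 5.80 against 9.84 and 9.67 (12.3-fold). In none of these genes did an array of one line reach the other, which was a condition for choosing them.

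The 20 largest differences on this side ran from 50.0-fold down to 6.54-fold. Both SCNN1A and SCNN1G, the alpha and gamma subunits of the epithelial sodium channel, were among them, at 10.6-fold and 6.72-fold. IL7R, the receptor chain for interleukin 7, read 8.17 and 7.45 against 11.01 and 11.12 (9.55-fold). ZBTB16 and MAOA, both known to respond to glucocorticoids, were 6.7-fold and 8.5-fold higher. EFEMP1, an extracellular fibulin, was 8.67-fold higher and C3, the central complement component, 6.66-fold. KRT7, a simple-epithelium keratin, was 6.85-fold higher, and the long noncoding RNA UCA1 13.8-fold. PDK4, a kinase that restrains pyruvate oxidation, differed between its own replicates in 231BrM-2a (8.52 and 10.20), and its 7.64-fold difference became 13.7-fold without replicate 1 of that line and 4.28-fold without replicate 2. GPRC5B, OLR1, COL4A1, IFIT1 and TAGLN made up the rest of the 20.

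MMP1, the interstitial collagenase, had the largest difference of all. It read 13.57 and 14.15 in 231BoM-1833, near the top of the scale, and 7.67 and 6.18 in 231BrM-2a, a 122-fold difference (-6.93 ± 0.39, adjusted p = 4.8e-06). The fold was 205 without 231BrM-2a replicate 1 and 72.9 without replicate 2. EHF, an epithelial ETS transcription factor, was more even, at 10.84 and 10.83 against 4.71 and 4.77 (68.4-fold, adjusted p = 1.9e-08). IL24, a cytokine of the interleukin 10 family, read 11.64 and 12.34 against 6.10 and 6.80 (46.6-fold). IL13RA2, the decoy receptor of interleukin 13, read 9.66 and 9.56 against 4.23 and 4.52 (37.6-fold). All 4 genes were bright in the bone-selected cells, and EHF and IL13RA2 lay at the dim end of the array in the brain-selected cells.

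The other genes among the 20 lowest included CHRDL1, which binds bone morphogenetic proteins, at 16.4-fold. SEMA3A, a repulsive semaphorin, was 10.2-fold lower. ROBO1, the receptor for Slit proteins, was 11.4-fold lower. IL1B, a main inflammatory cytokine, read 11.78 and 12.28 against 7.84 and 8.33 (15.4-fold). MUC15, a membrane mucin, was 20.7-fold lower and ESM1, a secreted proteoglycan of activated endothelium, 19.0-fold. F2RL2, the protease-activated receptor 3, was 12.8-fold lower. HAS2, which makes hyaluronan, read 10.47 and 9.87 against 6.51 and 6.71 (11.8-fold). TNFSF15, a ligand of death receptor 3, was uneven in 231BoM-1833 (8.49 and 10.91), and its 12.8-fold difference became 29.7-fold without replicate 1 of that line and 5.53-fold without replicate 2. RAB38, DOCK10, SPANXB1, FGF5, RADX, HLA-DPA1 and CCBE1 completed the 20, between 11.6-fold and 9.95-fold lower. SPANXB1 belongs to a family of near-identical copies that these probes may not separate.

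**Figure D2:**
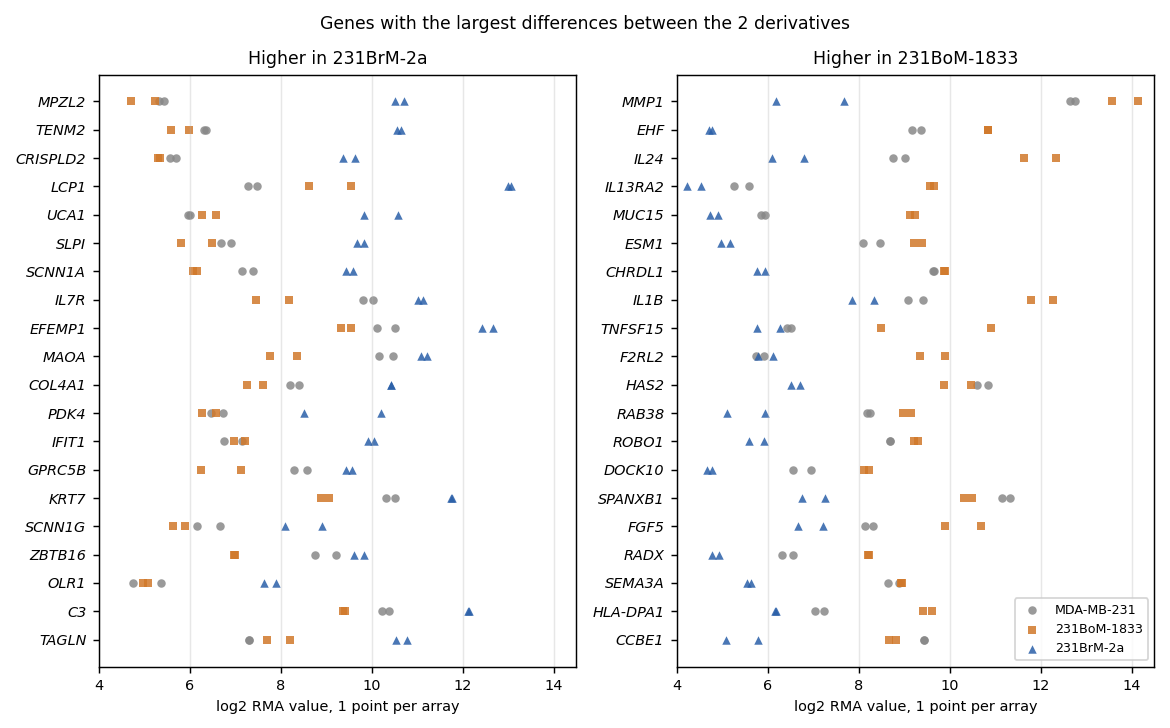
The log2 value on every array, 1 point per array, for the 20 genes highest and the 20 genes lowest in 231BrM-2a relative to 231BoM-1833; grey circles are MDA-MB-231, orange squares 231BoM-1833 and blue triangles 231BrM-2a. Orange and blue points do not overlap for any of the 40 genes, which was a condition of their choice. The grey points sit near one derivative for some genes, such as MPZL2 and HAS2, and between both for others, such as IL1B and KRT7.

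The parental arrays, which share the arrays of each derivative with the contrast described here, place the 2 lines in several ways, and only levels are given. For MPZL2, CRISPLD2 and OLR1 the parental level lay close to that of 231BoM-1833, with 231BrM-2a standing apart (brain minus parental 5.24, 3.87 and 2.71, bone minus parental -0.40, -0.30 and -0.03). HAS2, CHRDL1 and SEMA3A also had 231BrM-2a apart, below the other lines (-4.11, -3.81 and -3.18 against -0.55, 0.23 and 0.18). For F2RL2 and CYP24A1 it was 231BoM-1833 that stood apart (bone minus parental 3.80 and 3.52, brain minus parental 0.13 and 0.48). For IL24, IL1B and EHF the parental level lay between the derivatives, with 231BoM-1833 above it (3.11, 2.78 and 1.58) and 231BrM-2a below (-2.43, -1.16 and -4.52). IL7R, MAOA, ZBTB16 and KRT7 had the opposite arrangement, with 231BoM-1833 below the parental level (-2.10, -2.25, -2.01 and -1.45) and 231BrM-2a above it (1.16, 0.84, 0.73 and 1.33).

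Genes reported by others as high in bone-seeking derivatives of this line were lower in 231BrM-2a for 6 of 9 measured and higher for 0, with a median difference of -0.65 against 0.012 over all 18418 genes. CXCR4, the chemokine receptor that responds to CXCL12, read 9.62 and 9.55 in 231BoM-1833 and 6.09 and 6.58 in 231BrM-2a (9.52-fold, adjusted p = 1.62e-06). FGF5 was 10.3-fold lower and FST, which binds activins, 3.04-fold. IL11, a cytokine that drives osteoclast formation, read 8.12 and 8.16 against 7.48 and 7.59 (1.52-fold, adjusted p = 0.021), a call that was lost in turn without each of the 4 derivative arrays (adjusted p of 0.0518 to 0.116). CCN2, a matricellular target of TGF-beta, did not pass the test (-0.40 ± 0.13, adjusted p = 0.057) but passed it without 231BoM-1833 replicate 1 (0.0477). SPP1, osteopontin, was at the dim end in all arrays (4.45 and 4.64 against 4.6 and 4.52, adjusted p = 0.944), with a difference of 0.02 that turned to -0.04 when array medians were set equal.

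Genes reported as high in brain-seeking derivatives were lower in 231BrM-2a than in 231BoM-1833 for 9 of 15 and higher for 2, with a median of -0.64. Against the parental line, in the same limma model, 0 of the 15 were higher in 231BrM-2a and 8 were lower (median -0.39). MMP1 is on this list as well as on the one for bone. PTGS2, the inducible cyclooxygenase, read 10.34 and 10.20 in 231BoM-1833 and 7.47 and 8.49 in 231BrM-2a (4.91-fold lower, adjusted p = 0.000306). HBEGF, a ligand of the EGF receptor, read 11.93 and 11.49 against 9.68 and 9.78 (3.94-fold lower). ST6GALNAC5 read 7.02 and 7.48 against 6.43 and 6.2 (1.91-fold lower, adjusted p = 0.00248), and LAMA4, a laminin chain, was 3.33-fold lower. The direction of these genes was therefore the same as that of the bone list. The 2 members higher in 231BrM-2a than in 231BoM-1833 were ANGPTL4 and FSCN1. ANGPTL4, a secreted regulator of lipase and vessel permeability, read 6.85 and 6.43 against 7.63 and 8.45 (2.63-fold, adjusted p = 0.00294). FSCN1, the actin bundler fascin, read 9.09 and 8.78 against 9.41 and 9.41. FSCN1 is named here after its values were seen, and its call (adjusted p = 0.024) did not hold when the second 231BoM-1833 array or either 231BrM-2a array was left out (0.105 to 0.115). The 3 genes reported as low in brain-seeking derivatives, SCNN1A, PLAAT4 and TNFSF10, were all higher in 231BrM-2a, at 10.6-fold, 2.74-fold and 1.47-fold. For TNFSF10, the death ligand TRAIL, the call (adjusted p = 0.0191) was lost without 231BoM-1833 replicate 2 or either 231BrM-2a array (0.0782 to 0.0986).

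Interferon-stimulated genes are switched on when type I interferon signalling sends the factor ISGF3 to a promoter element of paired GAAA blocks. Of 43 measured, 19 were higher in 231BrM-2a and 3 were lower, 51.2% called against 23.1% of all genes, with a median of 0.29. Both derivatives stood above the parental line in the same limma model. In 231BoM-1833, 19 members were higher than in MDA-MB-231 and 0 lower (median 0.36), and in 231BrM-2a 30 were higher and 1 lower (median 0.76). IFIT1, an antiviral protein that binds foreign RNA, read 7.21 and 6.96 in 231BoM-1833 and 10.05 and 9.92 in 231BrM-2a (7.46-fold, adjusted p = 2.84e-06). EPSTI1 read 4.79 and 5.05 against 7.20 and 7.09 (4.67-fold), and MX1, an antiviral GTPase, 6.87 and 6.59 against 8.81 and 8.23 (3.46-fold). The 3 genes did not overlap between the lines, as held for every called gene. The group did not move as a block, however, since 21 members were not called (differences of -0.37 to 0.45), and TRIM22, an antiviral ubiquitin ligase, was 4.12-fold lower at 7.69 and 7.85 against 5.75 and 5.70. The other members lower in 231BrM-2a, named after their values were seen, were IFITM1 (1.81-fold) and SAMD9 (1.47-fold, a call that did not hold when the second array of either derivative, or either parental array, was left out). Setting array medians equal left 19 higher and 4 lower.

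The promoters of the strongest members are printed because the list was known for this element, written GAAANNGAAA and searched on both strands in the 250 bases before the start site. Of 35116 RefSeq promoter entries, only the first listed for each of 27305 symbols was searched, so other start sites were left out. The element occurred in 3.07% of these promoters and in 21 of the 34 measured members that had an entry (61.8%). Among them were 9 of the 13 called higher and both of the 2 called lower with an entry, IFITM1 and SAMD9. Each line gives the 160 bases before the start site in RefSeq GRCh38.p14, 5′ to 3′ on the gene's strand, with matches in capitals. The IFIT1 window lies on the plus strand at chr10:89392463-89392622 and that of EPSTI1 on the minus strand at chr13:42992242-42992401.
IFIT1: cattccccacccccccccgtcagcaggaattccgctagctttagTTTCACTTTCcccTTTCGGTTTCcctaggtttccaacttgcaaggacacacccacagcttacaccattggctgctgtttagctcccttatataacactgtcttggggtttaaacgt
EPSTI1: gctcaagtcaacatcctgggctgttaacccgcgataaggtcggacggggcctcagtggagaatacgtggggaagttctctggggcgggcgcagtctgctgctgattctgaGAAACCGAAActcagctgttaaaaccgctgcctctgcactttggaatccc
IFIT1 held 2 matches and EPSTI1 held 1, whose nearest first base was 103 and 50 bases before the start site. The first-listed MX1 entry held 0 in this window, and any other MX1 start site was not searched. These are matches of letters, not measured binding sites.

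Class II molecules of the major histocompatibility complex present peptides to CD4+ T cells and are expressed under the control of CIITA together with factors bound at promoter boxes that include a CCAAT motif. Of 13 measured members of class II presentation, 8 were lower in 231BrM-2a and 1 was higher, 69.2% called, with a median of -0.50. HLA-DPA1, the alpha chain of HLA-DP, read 9.40 and 9.61 in 231BoM-1833 and 6.16 and 6.18 in 231BrM-2a (10.1-fold, adjusted p = 5.16e-07), and its partner HLA-DPB1 7.93 and 8.47 against 6.03 and 5.97 (4.58-fold). HLA-DMA and HLA-DMB, which load peptides onto class II molecules, were 3.5-fold and 4.42-fold lower. In these 4 genes both 231BoM-1833 arrays stood above the parental ones, which read 7.80 or less, whereas 231BrM-2a was within 1 unit of them (brain minus parental -0.96 to 0.06). CIITA, named after its values were seen, read 6.56 and 6.77 against 6.16 and 6.16 (1.42-fold, adjusted p = 0.0191). That call was lost without 231BoM-1833 replicate 2 or either 231BrM-2a array (0.0888 to 0.0924). RFXAP was the member higher in 231BrM-2a (1.69-fold), also named after its values were seen. The number lower was 5 when 231BoM-1833 replicate 2 or either array of 231BrM-2a was left out.

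The CCAAT box occurred, on either strand, in 8 of 11 class II promoters with an entry (72.7%) and in 33.0% of the 27305 promoters searched. The printed windows are of the same kind as those of the interferon genes, with CCAAT or its complement in capitals. The HLA-DPB1 window lies on the plus strand at chr6:33075830-33075989, that of HLA-DMB on the minus strand at chr6:32941029-32941188 and that of HLA-DMA on the minus strand at chr6:32953098-32953257.
HLA-DPB1: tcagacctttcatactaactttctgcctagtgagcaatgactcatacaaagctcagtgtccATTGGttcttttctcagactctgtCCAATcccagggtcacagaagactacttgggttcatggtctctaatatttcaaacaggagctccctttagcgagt
HLA-DMB: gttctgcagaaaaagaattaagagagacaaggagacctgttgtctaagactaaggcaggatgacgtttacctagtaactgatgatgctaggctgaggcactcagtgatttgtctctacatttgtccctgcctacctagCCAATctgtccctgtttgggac
HLA-DMA: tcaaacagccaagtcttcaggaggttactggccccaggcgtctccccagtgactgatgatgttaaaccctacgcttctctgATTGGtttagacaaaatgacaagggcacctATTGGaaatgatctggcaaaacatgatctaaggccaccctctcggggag
HLA-DPB1 and HLA-DMA held 2 matches each and HLA-DMB held 1. The first-listed HLA-DPA1 entry held 0, and any other start site of that gene was not searched. In class I presentation, 2 of 11 members were lower and 3 higher. TAP2, a peptide transporter subunit, was 1.96-fold lower and PSMB8, an immunoproteasome subunit, 1.65-fold lower. NLRC5 was higher (0.64), as was PSMB10, another immunoproteasome subunit (0.5, or 0.37 without 231BrM-2a replicate 1). With array medians set equal, 4 class I members were lower and 2 higher, and the larger side also changed when single arrays were left out, so that list had no settled direction.

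**Figure D3:**
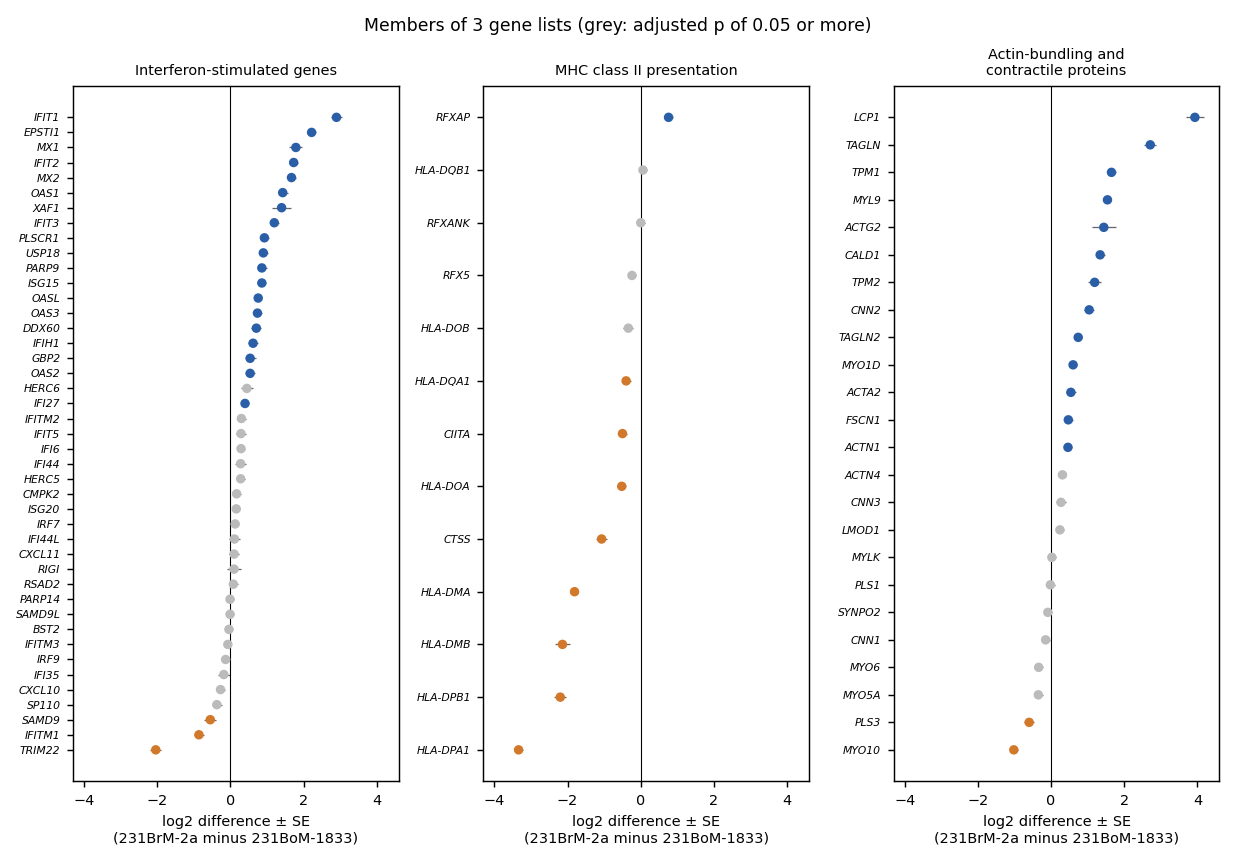
Difference on the log2 scale, 231BrM-2a minus 231BoM-1833, with its standard error, for each measured member of 3 gene lists; blue and orange points were called higher and lower, grey points were not called. Interferon-stimulated genes lie mostly right of 0 except TRIM22, class II genes mostly left of 0, and contractile genes are led by LCP1 and TAGLN.

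Among cytokines and chemokines, more were called lower than higher in the brain-selected cells. Of 18 interleukins and colony-stimulating factors, 8 were lower and 3 higher. IL1A read 11.46 and 11.73 against 9.44 and 8.94 (5.31-fold lower), alongside IL24 and IL1B, and IL7 was 3.42-fold lower while its receptor chain IL7R was higher. Of 20 chemokines and chemokine receptors, 8 were lower and 2 higher, and 5 were lower without 231BrM-2a replicate 1. CXCL8, which attracts neutrophils, read 12.59 and 11.77 against 9.48 and 9.83 (5.76-fold lower). CXCL1 was 5.41-fold and CXCL2 4.13-fold lower, so the neutrophil-attracting chemokines named here and the receptor CXCR4 had 1 direction. The members higher in 231BrM-2a, named after their values were seen, were CXCL16 (1.81-fold) and CCL5 (1.48-fold, a call lost without 231BrM-2a replicate 1), and among the cytokines IL6 (2.01-fold, lost without 231BrM-2a replicate 2), IL32 (1.60-fold) and CSF1 (1.72-fold).

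Receptors and signalling genes of the same field were mixed. Among 22 interleukin receptors 8 were higher and 3 lower, the first led by IL7R and IL1R1 (2.12-fold), the signalling receptor for IL1A and IL1B, with IL17RA at 1.90-fold. TLR2, which senses bacterial lipoproteins, read 8.61 and 7.97 against 5.70 and 5.32 (6.88-fold lower), whereas TLR4, the lipopolysaccharide receptor, was 2.17-fold higher. NFKBIZ and TRAF1, targets of NF-kappaB, were 2.79-fold and 2.88-fold lower, and CD40, a receptor of the same pathway, 2.82-fold higher. Of 27 TNF superfamily ligands and receptors, 7 were lower and 4 higher, CD40 among the latter. TNFSF4 was 4.19-fold and TNFRSF10D, a decoy receptor of TRAIL, 2.90-fold lower. Immediate early and AP-1 genes, which respond within minutes to growth signals, were lower for 10 of 19 and higher for 1 (median -0.50). The phosphatases DUSP5, DUSP4 and DUSP6, which switch off MAP kinases, were 4.29-fold, 4.19-fold and 3.46-fold lower, and IER3 4.07-fold. The member higher was FOSL2, at 2.37-fold, named after its values were seen.

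Collagens were higher in 231BrM-2a for 11 of 24 and lower for 3. COL4A1 read 7.60 and 7.25 against 10.42 and 10.43 (8.0-fold) and COL4A2 8.15 and 8.19 against 10.56 and 10.59 (5.31-fold). These 2 chains assemble together in basement membranes, and both rose above the parental level in 231BrM-2a (2.13 and 1.61) and lay under it in 231BoM-1833 (-0.87 and -0.80). COL5A1 was 3.02-fold and COL12A1 1.97-fold higher. Laminins and matricellular proteins went both ways, with 9 of 26 higher and 6 lower. TGFBI, a matrix protein induced by TGF-beta, read 9.43 and 9.42 against 11.56 and 11.71 (4.62-fold higher). TNC, tenascin C, had the opposite direction at 9.97 and 10.73 against 8.12 and 7.93 (5.01-fold lower), as did SPARC, osteonectin, at 8.99 and 8.55 against 6.15 and 7.03 (4.52-fold lower).

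Among proteases and inhibitors, differences of at least 2-fold were mostly on the lower side, with 4 lower and 1 higher for the metalloproteinase list and 6 lower and 1 higher for the plasminogen and cathepsin list. PLAT, tissue plasminogen activator, read 12.78 and 12.98 against 10.43 and 10.29 (5.73-fold) and PLAUR, the urokinase receptor, was 3.32-fold lower. MMP3 was 2.97-fold lower. Of the inhibitors, TIMP3 was 2.89-fold lower on its brightest cluster, with a second cluster at -0.51, and CST1, a cystatin, was 4.46-fold lower, while TIMP4 was 3.46-fold higher. Over the list of 23 plasminogen activators, cathepsins and inhibitors, 9 were lower and 8 higher, and over 23 metalloproteinases and TIMPs, 6 were lower and 4 higher. Integrins, which attach cells to this matrix, went both ways, with 5 of 22 higher and 4 lower (2 lower without 231BrM-2a replicate 1). ITGB3, a vitronectin receptor chain, read 8.61 and 8.26 against 10.17 and 10.75 (4.07-fold higher) and ITGB5 was 2.11-fold higher, whereas the collagen receptor chain ITGA2 was 3.47-fold and the laminin receptor chain ITGA6 2.61-fold lower.

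Actin-bundling and contractile proteins were higher in 231BrM-2a for 13 of 24 and lower for 2, 62.5% called, with a median of 0.47. Beside LCP1, TAGLN, the smooth muscle protein transgelin, read 8.20 and 7.70 against 10.54 and 10.78 (6.54-fold). TPM1, a tropomyosin, was 3.13-fold and MYL9, a myosin light chain, 2.92-fold higher. The 2 members lower were MYO10 (2.03-fold) and PLS3 (1.52-fold, a call lost without 231BrM-2a replicate 1), named after their values were seen. PLS3 is the plastin of solid tissues, and LCP1 its leukocyte relative. Components of TGF-beta signalling, which can induce several of these contractile genes, were higher for 6 of 21 and lower for 2. TGFB2, a ligand, was 2.64-fold higher. The co-receptor TGFBR3 and the latency protein LTBP3 were 2.5-fold and 2.58-fold higher. Of 20 YAP and TAZ targets 8 were higher and 2 lower, but only 4 were higher without either 231BrM-2a array and 5 without 231BoM-1833 replicate 1, and NUAK2 alone exceeded 2-fold (2.85-fold).

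Genes of bone morphogenetic protein signalling went both ways, with 8 of 24 higher and 6 lower. ID1, a direct target, read 8.18 and 7.73 against 9.26 and 9.76 (2.93-fold higher). BMP1, a procollagen protease, was 3.43-fold higher on its brightest cluster, with another at 0.37. The antagonists CHRDL1 and FST were lower, as given. In the Notch and Wnt pathways LEF1, a Wnt-responsive factor, was 2.99-fold lower, while LRP5, a Wnt co-receptor, was 2.97-fold and the ligand WNT5A 2.22-fold higher.

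Among 50 genes of axon guidance and neuronal adhesion, 13 were higher and 14 lower, a share of 54.0% called without a common direction (median 0.00). TENM2 and the adhesion protein NRCAM (3.32-fold) were higher, and ROBO1 and SEMA3A lower, so the list held some of the largest differences of both signs. Of 23 epithelial adhesion and tight junction genes, 6 were higher and 2 lower, and of 13 keratins, 5 were higher and 2 lower. DSC2, a desmosomal cadherin, read 8.74 and 8.46 against 5.92 and 6.19 (5.85-fold lower), whereas MPZL2 and its relative MPZL3 (2.65-fold) were higher. The keratins KRT19 and KRT15 were 4.06-fold and 2.25-fold lower, and KRT7, KRT80 (2.19-fold) and KRT8 (1.54-fold) higher. Of the factors that drive epithelial-mesenchymal transition, ZEB2 was 2.16-fold lower on its brightest cluster (-0.25 on another). SNAI1 and SNAI2 were 1.56-fold and 1.66-fold higher (adjusted p = 0.0239 for both). Neither call held when the second array of either derivative was left out, and that of SNAI2 also failed without the first 231BrM-2a array.

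Angiogenic factors were lower in 231BrM-2a for 7 of 14 and higher for 4. ESM1 led those lower, with KDR, a VEGF receptor, at 2.97-fold and VEGFA, its ligand, at 9.79 and 9.74 against 8.94 and 8.42 (2.12-fold). THBS1, thrombospondin 1, which restrains vessel growth, was 2.64-fold higher. PDGFRB read 6.2 and 6.49 against 7.78 and 8.01 (2.93-fold higher) and its ligand PDGFB was 2.09-fold higher. Of 20 mucins and sialyltransferases, 5 were lower and 4 higher. The polysialyltransferase ST8SIA4 was 5.53-fold and ST6GAL1 4.10-fold lower, while the mucin MUC1 was higher (a log2 difference of 1.29). Among genes that act on osteoclasts or bone matrix, TNFRSF11A, the RANK receptor, was 1.84-fold lower and the macrophage growth factor CSF1 1.72-fold higher. CYP24A1, which breaks down vitamin D, read 9.0 and 8.77 in 231BoM-1833 and 5.41 and 6.29 in 231BrM-2a (8.22-fold lower), while CYP1B1, an oestrogen hydroxylase, was 3.07-fold higher.

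Metabolic lists pointed in different directions. Of 28 genes of glycolysis and the hypoxia response, 12 were higher in 231BrM-2a and 3 lower (median 0.33), and 6 were higher without 231BrM-2a replicate 2. ALDOC, the brain-type aldolase, read 7.28 and 6.97 against 8.62 and 8.93 (3.14-fold), and P4HA2, a collagen prolyl hydroxylase, was 1.95-fold higher. HK2, the inducible hexokinase, was 1.87-fold lower along with VEGFA, so 2 familiar hypoxia targets did not follow the rest. Serine synthesis, amino acid transport and the amino acid stress response had 9 of 24 members lower and 0 higher (median -0.41), with 15 not called in the limma fit. PHGDH, the first enzyme of serine synthesis, read 10.11 and 10.49 against 8.32 and 8.02 (4.38-fold), CTH, which makes cysteine, was 3.19-fold lower, and CHAC1 and DDIT3, targets of the stress factor ATF4, were 3.0-fold and 3.01-fold lower. Without 231BoM-1833 replicate 1, 1 member of this list was higher. Oxidative phosphorylation had 7 of 25 higher and 1 lower, but 1 higher without 231BrM-2a replicate 2 and 4 without either 231BoM-1833 array. With array medians set equal, 3 were higher and 2 lower.

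Cell death regulators were called for 10 of 18, and 7 of those were lower (4 without 231BrM-2a replicate 1). BCL2A1, an NF-kappaB-induced survival protein, was 4.33-fold lower, PMAIP1, the pro-death protein NOXA, 2.64-fold lower and XIAP, a caspase inhibitor, 1.87-fold lower. Cell cycle and replication genes were called in 24.3% of 37, close to the 23.1% of all genes, though bright genes like these were called more often. CCND2 was 2.72-fold and CDKN1A 2.55-fold lower, and CCNB2 2.04-fold higher. Replicate choice moved that list most: 13 members were higher without 231BoM-1833 replicate 1, against 4 with it and 2 without any 1 of the other derivative arrays. Of 21 HOX genes, 0 were higher and 3 lower (14.3%, against 10.8% of all genes), led by HOXB9 (2.24-fold). This list was dim, with array medians of 5.89 to 6.06, and brighter genes were called more often. Among cancer-testis antigens on the X chromosome, MAGEC2 read 8.12 and 7.96 against 4.66 and 4.80 (9.89-fold lower), and MAGEB2 4.18 and 4.48 against 6.09 and 7.35 (5.25-fold higher, or 8.13-fold and 3.39-fold without replicate 1 or 2 of 231BrM-2a).

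Markers of other cells were read as a check of the labelled cells. The 18 leukocyte markers had array medians of 5.41 to 5.73 in all 3 lines, with 0 called higher in 231BrM-2a and 2 lower in the limma fit, CD14 (2.61-fold) and CD68 (1.54-fold). PTPRC, the pan-leukocyte marker, lay between 3.60 and 3.86 on all 6 arrays. Erythroid, platelet and endothelial markers had medians of 5.83 to 6.23 with 0 of 12 higher and 3 lower, TIE1 (2.06-fold), PPBP (1.73-fold) and ESAM (1.33-fold, a call lost without 3 of the 4 derivative arrays in turn). Neural and glial markers had medians of 5.98 to 6.27, and 3 of 20 were higher in 231BrM-2a and 2 lower. That is 25.0% called against 23.1% of all genes, with a median difference of 0.02. MBP was among the 2 lower (-0.47, or -0.35 without 231BrM-2a replicate 1). SLC1A3, a glial glutamate transporter, read 6.2 and 6.24 against 8.10 and 7.80, MAP2 6.03 and 6.53 against 7.43 and 7.94, and RBFOX3 6.67 and 6.48 against 7.46 and 7.80 on its brightest cluster, with differences of -0.06 and -0.04 on its other 2. GFAP, the defining astrocyte filament, differed by -0.10. Fibroblast and osteoblast markers had medians of 5.77 to 6.11 with 4 of 15 higher, led by DCN, decorin, at 5.30 and 5.04 against 6.77 and 7.10 (3.40-fold), and PDGFRB. The share called was 11.1% of leukocyte, 25.0% of erythroid, platelet and endothelial and 26.7% of fibroblast and osteoblast markers. All genes had 23.1%, so these counts lay near or under the background. In RNA from a sorted population, fewer cells of a type and less RNA per cell cannot be told apart, and the part of other cells in these results was not tested.

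**Figure D4:**
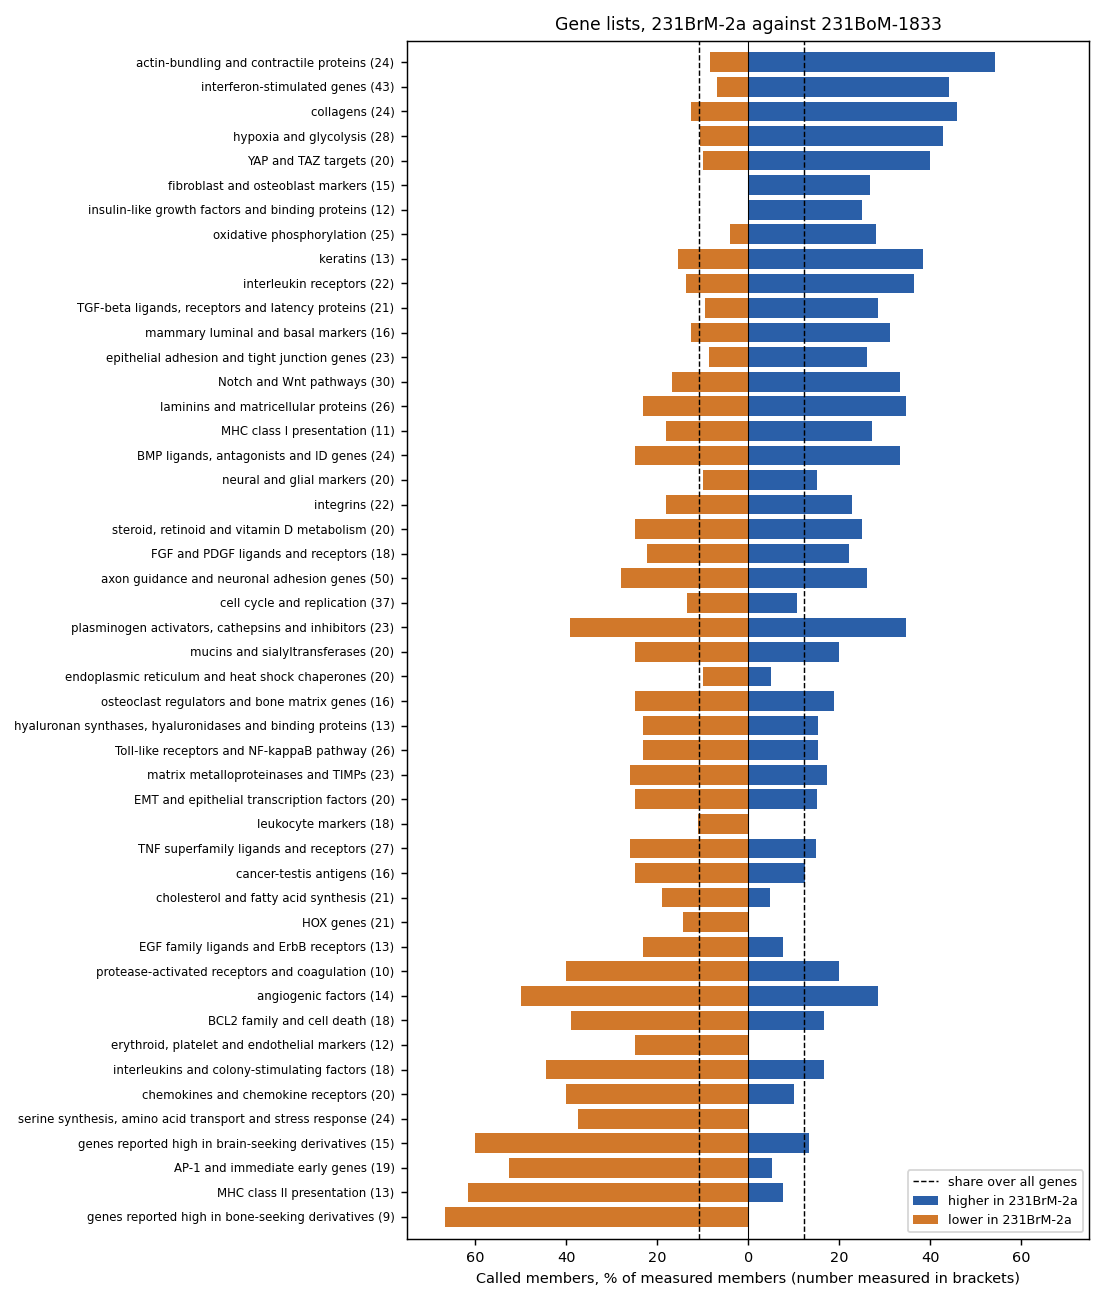
Members called higher (blue, to the right) and lower (orange, to the left) in 231BrM-2a, as a percent of the measured members of each gene list with 9 or more measured, whose number is in brackets; dashed lines mark the shares over all 18418 genes, 12.3% higher and 10.8% lower. Actin-bundling proteins, interferon-stimulated genes and collagens stand at the top, and genes reported high in bone-seeking derivatives and class II genes at the bottom.

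The called genes were unevenly spread over the chromosomes. Of 710 measured genes on chromosome 4, 209 were lower in 231BrM-2a (29.4%) and 23 higher (3.24%), and of 264 on chromosome 18, 80 were lower (30.3%) and 14 higher (5.30%), against 10.9% lower and 12.3% higher over 18365 genes with a chromosome. Chromosome 6 had 18.1% lower and 6.96% higher. The opposite side was larger on chromosome 15 (24.8% higher, 4.17% lower), chromosome 13 (25.2% and 11.7%) and chromosome 17 (19.3% and 4.31%). The X chromosome was high on both counts, at 15.7% higher and 22.6% lower. For these chromosomes the larger side was the same in all 17 alternative analyses. The median difference was -0.173 on chromosome 4, -0.138 on chromosome 18 and 0.131 on chromosome 15, and over genes with a mean log2 value above 7 it was -0.352, -0.36 and 0.286.

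The same sign ran through long stretches of neighbouring genes. Gene order was taken from the RefSeq GRCh38.p14 gene table, and stretches of 30 consecutive protein-coding genes with a mean log2 value above 7 were counted, where 17.9% of all such genes were higher and 14.8% lower. On the X chromosome, 25 of the 30 genes from GTPBP6 to PDHA1 and 22 of 30 from NYX to TIMM17B were higher with 0 lower. Further along the same chromosome, 26 of 30 from BRWD3 to PRPS1 and 28 of 30 from ACSL4 to ZDHHC9 were lower with 0 higher. The X chromosome was therefore divided, its first part high and its later part low in 231BrM-2a. Stretches of lower genes also ran from RAB28 to KLHL5 on chromosome 4 (24 of 30), from HSD17B8 to RPL10A on chromosome 6 (24), and from DYM to TNFRSF11A on chromosome 18 (23). Stretches of higher genes ran from NUFIP1 to CKAP2 on chromosome 13 (24) and from BPGM to TCAF1 on chromosome 7 (24). The median difference of these 9 stretches was -0.56 to -0.78 on the lower side and 0.53 to 0.67 on the higher side. These stretches were picked for their counts, which are given as a description with no test.

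**Figure D5:**
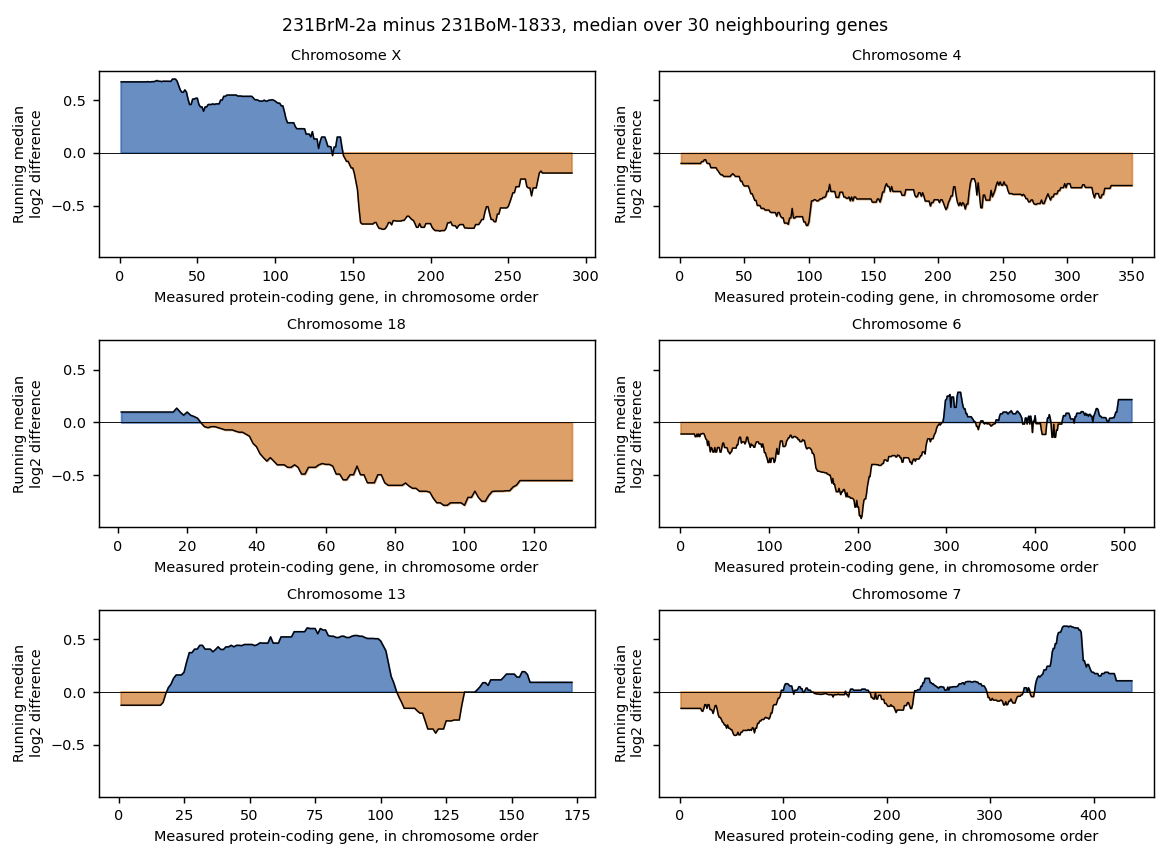
Running median of the log2 difference, 231BrM-2a minus 231BoM-1833, over 30 neighbouring protein-coding genes with a mean log2 value above 7, in gene order along 6 chromosomes chosen for their long stretches; the first and last genes of a chromosome share the end stretch, which gives flat ends. The X chromosome changes from above 0 to below 0, chromosomes 4 and 18 lie mostly below 0, and chromosomes 13 and 7 each have a raised stretch.

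Several genes with large differences lay in such stretches, and others did not. Of the 30 measured neighbours nearest to IL13RA2, 25 were lower and 0 higher, with a median of -0.67 against -5.23 for the gene itself. CHRDL1 and RADX, also on the X chromosome, had 22 and 23 lower neighbours, and CCBE1 on chromosome 18 had 22. LCP1 on chromosome 13 had 21 higher neighbours with a median of 0.51 against its own 3.93, and EPSTI1, on the same chromosome, 18 with a median of 0.57 against 2.22. MAOA had 19 higher neighbours. HLA-DPA1 had 20 lower neighbours of 30 with a median of -0.53, and an unbroken run of 6 measured genes, HLA-DMB, HLA-DMA, BRD2, HLA-DOA, HLA-DPA1 and HLA-DPB1, was lower. CXCL8, CXCL1 and CXCL2 on chromosome 4 shared 16 lower neighbours of 30 (median -0.43), a count that includes other chemokine genes of their cluster. In each of these cases the gene's own difference was larger than the median of its neighbours. Other genes named above lay closer to their neighbours. XIAP was at -0.91 against a neighbour median of -0.65 (24 of 30 lower) and TNFRSF11A at -0.88 against -0.65 (21 lower). PSMB8 was at -0.72 against -0.53 (21 lower) and CDKN1A at -1.35 against -0.74 (20 lower). MPZL2, TENM2, MMP1, IL24 and IL1B stood among neighbours with medians between -0.02 and 0.13. IGFBP7 (2.18-fold higher) and BCL2A1 ran against their neighbours, with 13 of 30 lower and 14 of 30 higher. No measurement of DNA was used here, and the part of position in any gene's difference was not tested.

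Of 173 microRNA precursor genes named on the array, 15 were called (8.67%, against 23.1% of all genes), 5 higher and 10 lower. Brighter genes were called more often and levels were not matched between these sets, so the 2 shares are not directly comparable. The rule for naming genes passed over small RNAs, so those with at least 2-fold differences are named after their values were seen. The array reads precursor or host transcripts, not the mature strand. MIR100 read 5.32 and 6.56 in 231BoM-1833 and 3.73 and 3.80 in 231BrM-2a (4.51-fold lower, or 6.94-fold and 2.93-fold without replicate 1 or 2 of 231BoM-1833). MIRLET7A2, its neighbour on chromosome 11, read 5.6 and 5.98 against 4.24 and 3.87 (3.32-fold lower), and MIR503, which lies on X, read 8.01 and 9.02 against 6.52 and 6.49 (4.02-fold lower). These 3 genes were all lower in 231BrM-2a. MIR95 read 3.25 and 3.19 against 4.35 and 4.32 (2.16-fold higher), at the dim end of the array. The main mature strand of each is printed from RefSeq GRCh38.p14, 5′ to 3′, with the seed, bases 2 to 8, in capitals, to show that no 2 of them share a seed. Their positions, all on the minus strand, are chr11:122152275-122152296, chr11:122146568-122146589, chrX:134546371-134546393 and chr4:8005312-8005333 in the order printed.
hsa-miR-100-5p: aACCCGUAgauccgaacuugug
hsa-let-7a-5p: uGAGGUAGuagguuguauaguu
hsa-miR-503-5p: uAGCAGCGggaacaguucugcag
hsa-miR-95-3p: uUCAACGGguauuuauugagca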

How the data were processed

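Expression was measured on 6 Affymetrix Human Gene 1.0 ST arrays. The deposited log2 values were RMA values made by the authors, per the submitters' processing notes, which name Expression Console without a version. RMA brings the probe intensities of every array to the same distribution, which hides any shift in the RNA content of cells, and it compresses low values. The resulting cluster values still differed slightly in median, at 7.25 on both 231BoM-1833 arrays and 7.30 on both 231BrM-2a arrays over clusters with a symbol. No detection calls, scan dates or batches were given. A platform table named 21214 of 33297 clusters, 19461 of them with 1 symbol. Of 26160 symbol entries, 26098 matched the RefSeq GRCh38.p14 gene table. A symbol on several clusters was read from the brightest. Values identical to those of another cluster were found in 979 clusters, as with copies of the HLA and SPANX genes.

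The model had a mean for each line over the 6 arrays (lmFit and eBayes of limma 3.58.1, run in R 4.3.3), two-sided, with Benjamini-Hochberg adjustment and a threshold of 0.05, after a test on simulated data. There were 3 residual degrees of freedom, and eBayes added 6.06. The number of arrays, 2 a line, limits the precision. Members, lists, rules and stretches were chosen with earlier results of these data known. Named genes were the 20 highest and 20 lowest called with no overlap between the lines, passing over uncharacterised loci, small RNAs and pseudogenes. To these were added up to 4 called members of each of 50 lists, the sort markers and genes known from these lines. Lists with no result given in the text are in the plot of gene lists. Alternatives changed scaling, filters, variance options, blocks and arrays.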

Additional observations from a re-analysis of the deposited data

How the results depend on the processing

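The count of 4976 called clusters stayed within 1.5 times under every alternative but 2, being 5018 with array medians set equal, 4985 with quantile normalisation repeated, 4826 without the dimmest clusters, 4254 with unnamed clusters tested too, 4542 with single-symbol clusters only, 5155 with a variance trend, 5040 with robust estimation and 4427 with the 4 derivative arrays alone. Leaving out 1 array gave 3001 to 4750, the lowest being without a 231BrM-2a array. The calls higher in 231BrM-2a then ran from 1475 to 2538 and those lower from 1466 to 2212; fewer arrays were used. Of the called clusters, 53.1% were higher, against 44.0% with array medians set equal. Deviations of same-numbered replicates correlated at 0.04, -0.16 and -0.17 between lines. With 2 arrays a line, a negative value means that differently numbered arrays deviated together to that extent. Whether arrays were processed together was not given and was not tested. A replicate block gave 4564 calls over 6 arrays and 3784 over the 4 derivative arrays, and a crossed pairing, added after seeing the data, 5741. Of 196 named genes, 192 were called, and with array medians set equal 192 kept direction and side of the threshold. Among the named genes, directions turned only for CD24, EPCAM and SPP1, which were not called: without 1 array, CD24 ran from -0.58 to 0.15, EPCAM from -0.13 to 0.91 and SPP1 from -0.08 to 0.11, and SPP1 was -0.04 with array medians set equal. The causes were not tested. Signal over background was not given, so the level that counts as expressed is unknown.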
